A study of Danio rerio with 21 samples.

Results

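The 40 genes described here encode the complement and coagulation proteins of zebrafish (Danio rerio) blood plasma, together with the inhibitors and the clot-dissolving enzymes that act on them. They were chosen by name from a list of 41 genes, and 40 of the 41 were found among the 26225 genes of the deposited table by NCBI gene number. The gene c6 was found through its current RefSeq symbol c6.2, and f13b was not matched and is not analysed here. The genes were measured by RNA-seq in 21 libraries of AB strain fish that fall into 7 groups of 3 libraries. Control fish stayed at 28 °C throughout and were sampled at 25 (C25D), 35 (C35D), 45 (C45D) and 60 (C60D) days after fertilization, written dpf. Heated fish spent 10 days at 35 °C, from 25 to 35 dpf, and were sampled at once (T35D) or, back at 28 °C, at 45 dpf (T45D) and 60 dpf (T60D). All fish came from matings within 1 family, and the study collected several fish at each age without stating how many went into a library. About 60 mg of tissue was ground for each RNA extraction, although the libraries are labelled whole fish.

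Complement is a set of plasma proteins that tag and puncture microbes. Cleavage of C3 tags the target, cleavage of C5 starts the terminal complex of C6, C7, C8 and C9, and factor H and factor I switch the tagging off. Coagulation is a chain of proteases that ends in thrombin, which turns fibrinogen into fibrin, and plasmin later dissolves the clot. In vertebrates most of these proteins are made by hepatocytes and released into the blood. Tissue factor, which starts coagulation at a wound, is made by cells outside the circulation instead, and factor D is known from mammals as a product of adipose tissue.

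The libraries held between 11875436 and 16471158 expected counts each. At these totals 3 counts, taken as the detection limit, corresponded to between 0.182 and 0.253 CPM (a count scaled to library size) before TMM scaling. All other CPM values also use the TMM factors of all 21 libraries. On that scale 3 counts stood at 0.189 CPM in T60D-2 and at 0.405 CPM in T45D-3. Together the 40 genes took between 0.0077% and 0.693% of the counts of a library. Transcripts of liver plasma proteins were low in 5 of the libraries labelled whole fish, namely C60D-1, C60D-2, C60D-3, T45D-3 and T60D-2. There the hepatocyte marker fabp10a was at 0.32 to 2.14 CPM, against 317 to 4722 CPM in the other 16 libraries. A list of 21 genes, called other liver plasma proteins here, summed to 275 to 922 CPM against 2663 to 22600 CPM. It includes fabp10a itself and a few more genes, such as paqr9, whose products are not plasma proteins. A list of 24 liver enzyme genes did not separate these 5 libraries, with sums of 568 to 1060 CPM there and 960 to 8291 CPM elsewhere. In each of C45D and C60D the library numbered 3 lay close to the mean of the other two. Among genes that differed over 1.5-fold within C45D, 94.5% had C45D-3 between C45D-1 and C45D-2, and in C60D the share for C60D-3 was 98.3%, while the share for any other library of the series was at most 68.0%. The spread within C45D and C60D may therefore be smaller than that of 3 separate samples, and the main counts that rest on these libraries are also given without the library numbered 3. Transcripts of oocyte marker genes, at 3 to 1452 CPM in sum elsewhere, stood at 6346 to 17469 CPM in T35D-2, T35D-3, T45D-2, T60D-2 and T60D-3.

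Across groups the transcripts of most of the 40 genes moved as a block. Mean CPM was highest in C35D for 33 of the 40 genes and lowest in C60D for 35. The C35D mean lay above the C45D mean for 39 genes. To compare whole libraries, 37 genes were summed, leaving out c7b, f3b and cfd. Of these, cfd was lower in T35D than in C35D like most others, but stayed measurable in C60D, T45D-3 and T60D-2. The genes c6, c7a and f10 stayed measurable there too and were kept in the sum. Relative to the mean of C35D, the sum stood at 76.1%, 56.0% and 59.9% in the 3 C25D libraries and at 45.6%, 77.4% and 63.3% in C45D. It stood at 53.0%, 24.2% and 13.1% in T35D, so that every T35D library was below every control library at 25 and 35 dpf, and T35D-1 was above C45D-1. After the return to 28 °C the sum was 89.5%, 35.3% and 2.06% in T45D and 89.2%, 1.09% and 61.9% in T60D. In C60D it was 1.68%, 2.71% and 1.92%. The libraries of T45D and T60D thus ranged from near the C35D level to near 0 within a group.

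**Figure D1:**
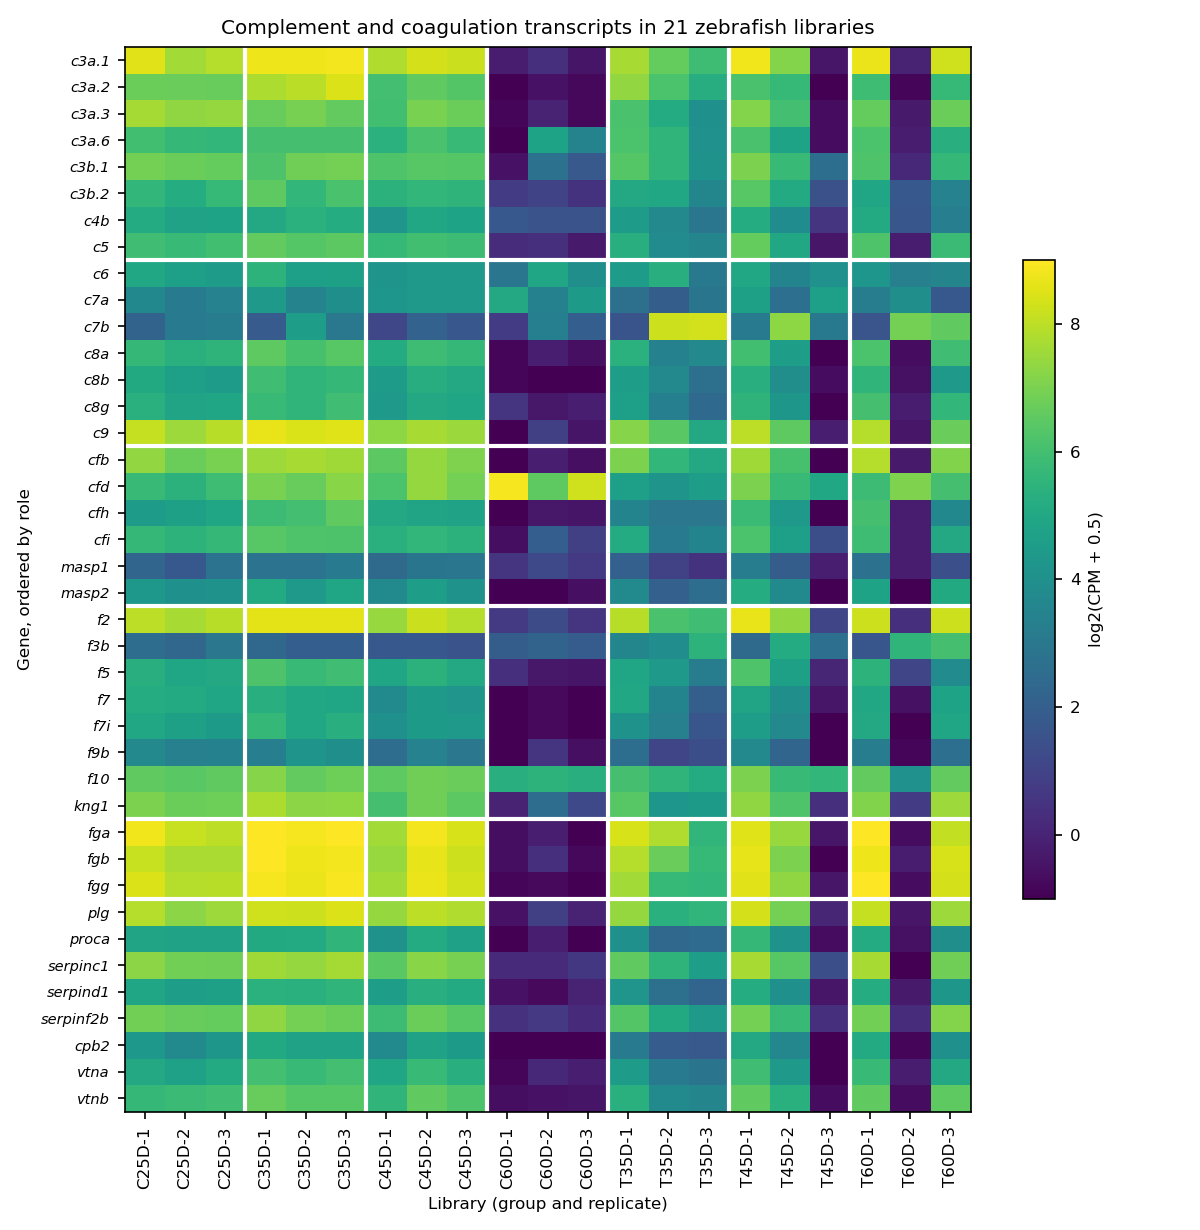
Expression of the 40 genes (rows, ordered by role and divided by white lines) in the 21 libraries (columns, by group), as log2(CPM + 0.5) from dark (low) to bright (high). The columns of C60D, T45D-3 and T60D-2 are dark for most genes, and T35D is darker than C35D. The rows of c7b and f3b run against the rest, while that of cfd departs from them in C60D.

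Compared per length, fibrinogen stood first in control fish at 35 dpf. In deposited FPKM (fragments scaled to gene length and library size), the C35D means were 345 ± 54.5 for fgg, 316 ± 40.8 for fgb and 267 ± 15.2 for fga (SD, n = 3), the 3 chains of the clot protein. They were followed by c9 at 203 ± 27.2, the prothrombin gene f2 at 189 ± 38.3, cfd at 178 ± 25.3 and the kininogen gene kng1 at 174 ± 21.9 FPKM. Over the 3 libraries the ranges of fgg and fgb overlapped, and so did those of c9, f2, cfd and kng1. Within each library fgg was above fgb, at 292, 401 and 342 against 287, 363 and 298 FPKM. Likewise c9 was above f2 in each of them. The largest C3 gene, c3a.1, stood at 97.6 ± 18.7 FPKM. The lowest FPKM means were those of f3b (3.09 ± 0.41), c7a (3.16 ± 0.38) and masp1 (3.85 ± 0.55).

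The comparison of T35D with C35D asks how the transcripts stood at the end of the 10 days at 35 °C. Of the 40 genes 38 had a log2 fold change below 0, against 41% of all 20208 genes tested, and the median was -1.84 against 0.27 over all genes tested. All T35D libraries lay below all C35D libraries for 34 genes, a pattern shown by 14.2% of all genes, and above them for 1 gene (10% of all genes), f3b. The values above 0 were those of c7b and f3b. In the quasi-likelihood test of edgeR, adjusted over all genes by Benjamini-Hochberg, 0 of the 40 genes passed 0.05 in either direction, as did 0% of all genes, and the smallest adjusted p was 0.192. At an unadjusted p of 0.05, 33 of the genes were lower and 2 higher, against 8.33% and 15.8% of all genes. In 1 fit of all 21 libraries, which share 1 estimate of the spread, 4 were lower and 2 higher at that threshold. DESeq2 called 23 of the 40 lower and 2 higher, against 2.4% and 4.07% of all genes. The T35D libraries differed widely among themselves, with T35D-1 the highest of the 3 for 36 of the 40 genes and T35D-3 the lowest for 28. Without T35D-1, edgeR called 35 genes lower and 2 higher, against 12.9% and 18.9% of all genes, and the median was -2.83. The 3 genes it did not call were c3a.6, c6 and fga. The T35D libraries left in that fit, T35D-2 and T35D-3, held 17469 and 11816 CPM of oocyte markers in sum, against 14.8 CPM in T35D-1. The part of oocyte content in these calls and in the spread within T35D was not tested.

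**Figure D2:**
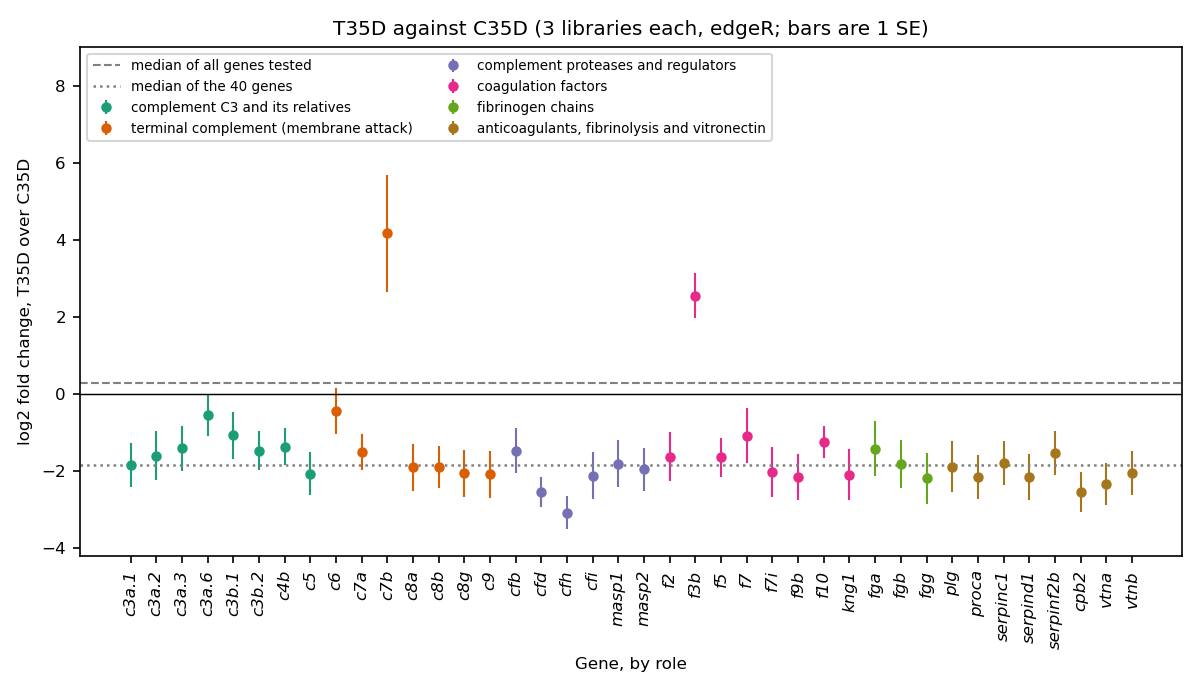
Log2 fold change of each gene in T35D over C35D with its standard error, from edgeR's fit of 3 libraries against 3, coloured by role. The dotted line is the median of the 40 genes (-1.84) and the dashed line that of all genes tested (0.27); c7b and f3b lie above 0, and cfh lies lowest.

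Among C3 and its relatives, 8 of 8 genes had values below 0 and 6 passed the unadjusted threshold. The main C3 gene c3a.1 was at 431, 425 and 454 CPM in C35D and at 205, 99.6 and 58.3 CPM in T35D. The groups did not overlap, and the log2 fold change was -1.86 (SE 0.57, edgeR adjusted p = 0.192). Complement C5, whose cleavage starts the terminal complex, was at 95.7, 81.6 and 89.6 CPM in C35D and at 38.4, 13.8 and 11.1 CPM in T35D, a log2 fold change of -2.08 (SE 0.55, edgeR adjusted p = 0.192). The other C3 genes c3a.2, c3a.3, c3b.1 and c3b.2 and the C4 gene c4b had log2 fold changes from -1.60 to -1.08. For c3b.2 the C35D libraries held 90.3, 48.9 and 69.4 CPM and the T35D libraries 32.4, 31.4 and 11.4 CPM. The C3 gene c3a.6 overlapped between the groups too, with 64.9, 66.3 and 65.5 CPM in C35D and 71.1, 46.5 and 16.3 CPM in T35D. These paralogs are close in sequence and lie near each other, c3b.1 directly beside c3b.2 and c3a.2 directly beside c3a.3 in the RefSeq gene order, so how RSEM divided shared reads among them is uncertain.

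The terminal complement genes encode the proteins that form the pore. Of 7 genes, 6 were below 0 and 5 were lower at the unadjusted threshold. C9, the subunit that lines the pore, was at 408, 344 and 363 CPM in C35D and at 144, 85.3 and 32.3 CPM in T35D, with a log2 fold change of -2.10 (SE 0.61, edgeR adjusted p = 0.192). The C8 chains c8a, c8b and c8g stood close to C9, at -1.92, -1.89 and -2.06, and c7a was at -1.51. The groups overlapped for c6, with 43.5, 24.3 and 25.1 CPM in C35D and 22.2, 38.4 and 7.83 CPM in T35D. The 1 exception in sign was c7b, a second C7 gene that lies directly beside c6 in the RefSeq gene order.

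Proteases and regulators of complement held the genes with the lowest unadjusted p. Factor H, which stops C3 from being cleaved on the body's own cells, is encoded by cfh. It was at 56.6, 64.0 and 93.3 CPM in C35D and at 10.9, 7.23 and 7.29 CPM in T35D and the groups were far apart. The log2 fold change was -3.09 (SE 0.42, edgeR adjusted p = 0.192), the lowest of the 40. Factor D, the protease that cuts factor B, is encoded by cfd and was at 127, 102 and 149 CPM in C35D and at 24.4, 17.3 and 23.9 CPM in T35D. Its log2 fold change was -2.54 (SE 0.39, edgeR adjusted p = 0.192), and its T35D libraries did not show the step between T35D-1 and the other two that most genes had. Factor B, encoded by cfb, was at 183, 209 and 192 CPM in C35D and at 129, 49.4 and 32.1 CPM in T35D (log2 fold change -1.48, SE 0.58). Factor I, the protease that inactivates C3b together with factor H and is encoded by cfi, was at 84.8, 76.2 and 73.9 CPM in C35D and at 35.1, 8.10 and 10.8 CPM in T35D (log2 fold change -2.13, SE 0.61). The lectin pathway proteases masp1 and masp2 stood at -1.81 and -1.96. All 6 genes of the set were lower at the unadjusted threshold.

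Within a library cfh was also set against the other genes. Per 1000 CPM of the other 36 summed genes, cfh accounted for 13.5 ± 3.55 CPM in C35D and 6.65 ± 3.43 in T35D (SD, n = 3). The lowest C35D library, at 10.2, was below the highest T35D library, at 10.5, so the ranges met at their edges, and no test was run. C25D stood at 7.72 ± 1.88. Over all 40 genes, 30 had a log2 fold change within 0.5 of their common median of -1.84.

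Coagulation factors behaved like complement, with f3b apart. Prothrombin, the precursor of thrombin (f2), was at 383, 388 and 383 CPM in C35D and at 243, 68.6 and 60.6 CPM in T35D, a log2 fold change of -1.64 (SE 0.64, edgeR adjusted p = 0.196). Factor V, the cofactor of factor X (f5), was at 73.7, 52.6 and 61.3 CPM in C35D and at 30.1, 20.6 and 9.06 CPM in T35D (log2 fold change -1.65, SE 0.51). Factor X, the protease that cuts prothrombin (f10), was at 143, 96.0 and 111 CPM in C35D and at 66.6, 46.2 and 34.7 CPM in T35D (log2 fold change -1.26, SE 0.42). The groups were apart for all 3. Factor IX (f9b), kininogen (kng1) and f7i stood at -2.17, -2.10 and -2.04. Factor VII, the partner of tissue factor (f7), overlapped between the groups, with 28.8 to 37.7 CPM in C35D and 3.54 to 30.8 CPM in T35D. Because f7, f7i and f10 are neighbours and relatives, their division by RSEM is uncertain too.

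The fibrinogen chains fga, fgb and fgg are given side by side, and the difference between the chains was not tested. Expression of fga was 627, 463 and 550 CPM in C35D and 339, 221 and 47.3 CPM in T35D (log2 fold change -1.43, SE 0.71, edgeR adjusted p = 0.245). For fgb the C35D libraries held 501, 423 and 456 CPM and the T35D libraries 235, 105 and 50.9 CPM (log2 fold change -1.82, SE 0.63). For fgg they held 460, 423 and 472 CPM against 197, 50.9 and 48.3 CPM (log2 fold change -2.20, SE 0.67). The T35D libraries were below the C35D libraries for all 3 chains, and fgb and fgg passed the unadjusted threshold. As a share of the summed FPKM of the 3 chains, fgg made up 37.03% ± 1.90 in C35D and 29.2% ± 10.7 in T35D (SD, n = 3). The T35D libraries held 31.3%, 17.5% and 38.6%, so the groups overlapped.

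The anticoagulants, the fibrinolytic genes and vitronectin were the set with the lowest median, at -2.11, and 8 of 8 were lower at the unadjusted threshold. Carboxypeptidase B2 (cpb2), which protects fibrin from lysis, was at 33.0, 26.7 and 26.4 CPM in C35D and at 8.52, 3.22 and 3.00 CPM in T35D, a log2 fold change of -2.55 (SE 0.53, edgeR adjusted p = 0.192). Plasminogen (plg), the precursor of plasmin, was at 309, 299 and 355 CPM in C35D and at 173, 40.3 and 46.8 CPM in T35D (log2 fold change -1.90, SE 0.66). Antithrombin (serpinc1), the main inhibitor of thrombin, was at 190, 169 and 203 CPM in C35D and at 93.6, 44.9 and 24.1 CPM in T35D (log2 fold change -1.79, SE 0.56). No library of T35D reached the C35D range for any gene of this set. Antiplasmin (serpinf2b), which inhibits plasmin, was at 159, 120 and 109 CPM in C35D and at 79.2, 33.0 and 20.6 CPM in T35D (log2 fold change -1.55, SE 0.57). Vitronectin binds the terminal complement complex and clots. Its genes vtna, at 64.5, 54.2 and 64.9 CPM against 21.9, 7.93 and 6.74 CPM, and vtnb, at 102, 81.6 and 82.9 CPM against 40.2, 13.2 and 11.3 CPM, had log2 fold changes of -2.33 (SE 0.54) and -2.05 (SE 0.57). Protein C (proca) and heparin cofactor II (serpind1), which inactivate clotting factors, both stood at -2.17. Activators and brakes of both cascades were thus lower side by side.

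Against all of these, c7b and f3b were higher in heated fish. Expression of c7b was 3.13, 23.6 and 7.60 CPM in C35D and 2.49, 304 and 319 CPM in T35D. Its log2 fold change was 4.16 (SE 1.51, edgeR adjusted p = 0.192), and T35D-1 was below all C35D libraries. Tissue factor f3b was at 4.69, 3.51 and 3.42 CPM in C35D and at 11.6, 14.6 and 43.2 CPM in T35D, so the groups did not overlap (log2 fold change 2.54, SE 0.59, edgeR adjusted p = 0.192). Over the whole series c7b was at 92.7 to 319 CPM in T35D-2, T35D-3, T45D-2, T60D-2 and T60D-3 and at 1.19 to 23.6 CPM in the other 16 libraries. These are the 5 libraries with 6346 to 17469 CPM of oocyte markers. In the same 5 libraries f3b was at 14.6 to 66.2 CPM, against 2.48 to 11.6 CPM elsewhere. The protease-activated receptor gene f2rl1.1, which is not among the 40 and was singled out after its values were seen, was high in these libraries too, at 44.0 to 66.1 CPM against 0.29 to 3.97 CPM. Of the 12 oocyte marker genes 11 were tested at 35 dpf and all 11 were above 0, with 1 past the unadjusted threshold. The other 16 libraries include 4 groups of controls and some heated fish. Among these heated libraries, f3b was at 11.6 CPM in T35D-1, above the 3.42 to 4.69 CPM of C35D. It was at 5.02 and 5.81 CPM in T45D-1 and T45D-3, above the 2.48 to 2.89 CPM of C45D. In T60D-1 it was at 2.68 CPM, below the 3.24 to 4.05 CPM of C60D. The part of oocyte content in c7b and f3b was not tested.

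**Figure D3:**
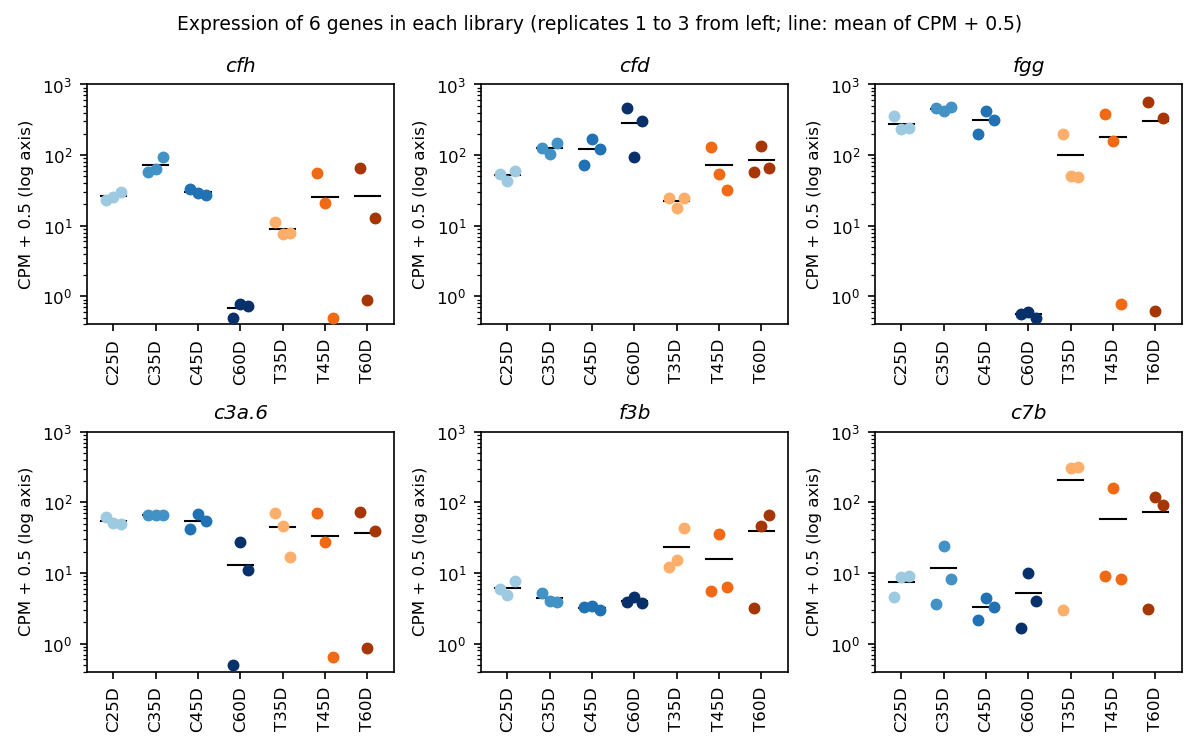
CPM + 0.5 on a log axis in each library for 6 genes, with points for replicates 1 to 3 from left to right in each group and a line at the group mean. T35D lies below C35D for cfh, cfd and fgg, overlaps for c3a.6 and lies above for f3b; cfd stays high in C60D where cfh and fgg are near 0, and c7b is high in 5 heated libraries.

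Liver genes outside these cascades moved in the same direction by a like amount. Of the 21 genes listed as other liver plasma proteins, such as the transferrin gene tfa, all 21 were below 0 in T35D against C35D. Their median was -1.64, and 12 were lower at the unadjusted threshold. Of 24 liver enzyme genes 21 were tested, 20 were below 0 with a median of -1.75, and 14 were lower at that threshold. The liver plasma genes summed to 16796 to 20997 CPM in C35D and 2663 to 10911 CPM in T35D, and the liver enzymes to 5339 to 8291 CPM and 960 to 2750 CPM, so neither sum overlapped. The marker fabp10a was still measured in every T35D library, at 2149, 1030 and 317 CPM. Set against the liver enzymes of the same library, the 37 summed genes amounted to 67.4% to 93.1% in C35D and 73.2% to 103% in T35D, and the ranges overlapped. Set against the other liver plasma genes, they amounted to 26.6% to 29.6% in C35D. T35D-2, at 38.2%, was above that range, while T35D-1 and T35D-3 were just below it, T35D-3 at 26.4%. The liver enzymes of T35D-3, at 960 CPM, lay within the 568 to 1060 CPM of the 5 libraries low in liver plasma transcripts. At such levels the liver enzymes may not follow liver content. With the mean liver enzyme level as a covariate in edgeR, the median log2 fold change of the 40 genes was 0.19, 13 genes were below 0, and 2 were lower at the unadjusted threshold. The values for cfh and cfd were then -2.23 and -2.35. Because the liver enzyme level separated C35D from T35D, an effect of heat and one of liver content cannot be told apart in that fit. In whole-body RNA fewer hepatocytes and less RNA per hepatocyte cannot be told apart either. A list of 15 liver transcription factor genes had a median of -0.57, with 12 below 0, 3 above 0 and 3 lower at the unadjusted threshold. Among the 12, hnf4a and foxa3 stood at -1.80 and -1.49, further below 0 than the median of the list. Both were named after their values were seen and do not stand for the list. The sum of the 15 genes overlapped between the groups, at 277 to 333 CPM in C35D and 408, 194 and 206 CPM in T35D.

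**Figure D4:**
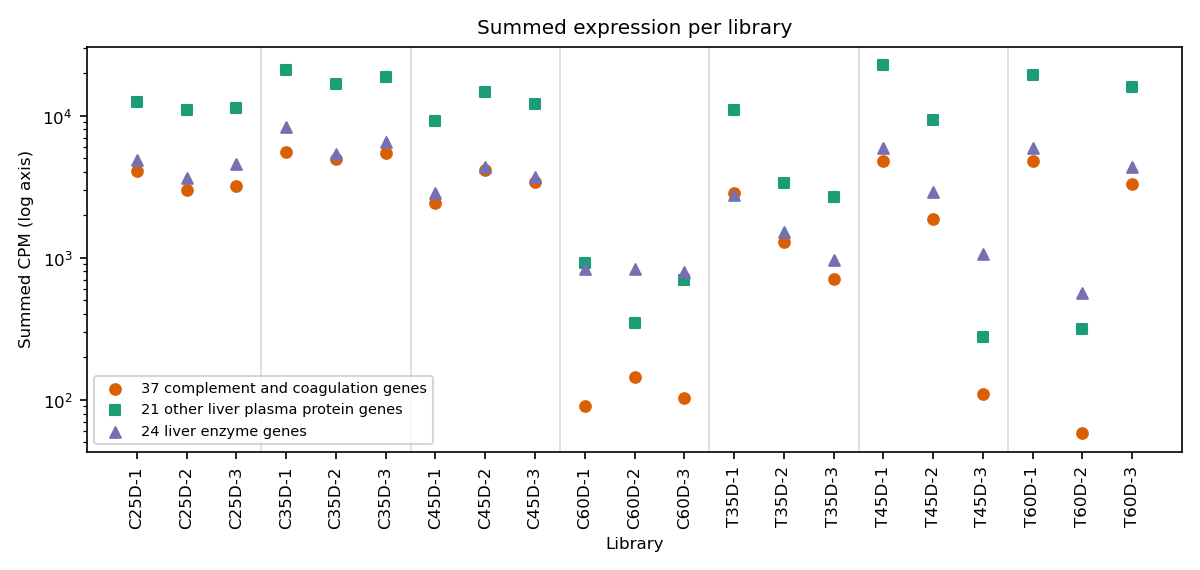
Summed CPM per library on a log axis for 37 of the complement and coagulation genes (without c7b, f3b and cfd), for 21 genes of other liver plasma proteins and for 24 liver enzyme genes. In C60D, T45D-3 and T60D-2 the 37 genes sum to 58.1 to 145 CPM, against 703 to 5588 CPM in the other 16 libraries, while the liver enzymes stay at 568 to 1060 CPM there.

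Marker transcripts of other tissues were also compared between C35D and T35D. The 10 macrophage and neutrophil markers had a median of -1.50, with 9 below 0, and 6 lower and 1 higher at the unadjusted threshold. They summed to 103 to 124 CPM in C35D and 55.2 to 91.5 CPM in T35D. The 8 endothelium and thrombocyte markers had a median of -1.01, with 7 below 0 and 1 lower at that threshold. Their sums were 73.0 to 94.0 CPM in C35D and 32.8 to 54.3 CPM in T35D. All 12 exocrine pancreas and all 9 intestine markers tested were below 0, with medians of -1.36 and -1.18, and their sums overlapped between the groups. All 12 eye markers were above 0, with 0 past the unadjusted threshold, and C35D-1 held only 2.01 CPM of them in sum. Skeletal muscle markers had a median of -0.15. The part of these tissues in the values of the 40 genes was not tested.

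The wider pathways were followed in genes outside the 40. Of 10 tested genes for complement recognition, 9 were below 0 and 6 were lower at the unadjusted threshold. Among them the C1q chain gene c1qc, which in mammals is made by macrophages, was at 7.52, 5.99 and 7.35 CPM in C35D and at 1.11, 0.70 and 1.29 CPM in T35D (log2 fold change -2.75, SE 0.48, edgeR adjusted p = 0.192). The mannose-binding lectin gene hbl4 stood at -3.00. Of 11 tested regulators and receptors 10 were below 0 and 7 were lower at that threshold, including properdin (cfp, -1.69), the C1 inhibitor serping1 (-2.06) and the factor H-like genes cfhl1 to cfhl4 (-2.37 to -2.00). Of 13 tested further coagulation genes 9 were below 0 and 5 lower, with the factor VIII gene f8 at -3.02 and thrombomodulin (thbd) at -2.70, while proza, serpina10a, f13a1b and the protein S gene pros1 stood at 0.22, 0.32, 0.79 and 1.31. Among genes for fibrinolysis and platelets, the plasminogen activator gene plat and the platelet integrin gene itgb3a were lower at the threshold, at -1.53 and -2.54, and f2rl1.1 was higher, at 3.76. The acute phase list held genes that the liver makes in inflammation together with cytokine and signalling genes. Its median was -0.28 over the 7 tested of 13 genes, so it does not describe the liver genes alone. The cytokine feedback genes socs3a and socs3b were higher at the unadjusted threshold, at 2.02 and 1.25. None of these genes passed the adjusted threshold.

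The heated fish were also set against the fish at the start of the treatment, in a comparison that shares T35D with the one above. Against C25D, 38 of the 40 genes were below 0 in T35D (49.5% of all genes), with a median of -1.19 against 0.01 over all genes. The groups did not overlap for 24 of them, against 17% of all genes. By edgeR 0 passed the adjusted threshold in either direction, as did 0% of all genes, 19 were lower and 2 higher at the unadjusted one (7.73% and 18.7% of all genes; 1 and 2 in the fit of all 21 libraries), and DESeq2 called 6 lower and 2 higher (2.33% and 10.8%). The C3 gene c3a.3 was at 201, 163 and 168 CPM in C25D and at 70.4, 35.4 and 15.6 CPM in T35D, a log2 fold change of -2.15 (SE 0.56, edgeR adjusted p = 0.118). For cfh the value was -1.62 (SE 0.36) and for cfd -1.26 (SE 0.33), both with an edgeR adjusted p of 0.118. Without T35D-1 edgeR called 33 genes lower and 2 higher, against 19.4% and 28.1% of all genes. T35D-2 and T35D-3, left in that fit, were high in oocyte markers, and the part of oocyte content was not tested.

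Over the same 10 days at 28 °C most of the genes were higher at the end. Between C25D and C35D, which shares C35D with the first comparison, 36 of the 40 genes were above 0 (54.2% of all genes), with a median of 0.70 against 0.05 over all genes. The groups did not overlap for 28 genes that were higher and for c3a.3, which was lower, against 16% and 20.8% of all genes. At an unadjusted p of 0.05, 27 were higher and 1 lower, against 13.6% and 12.7% of all genes, and in the fit of all 21 libraries 1 was higher and 0 lower. edgeR called 0 of the 40 past the adjusted threshold, against 0.181% of all genes higher and 0.0538% lower, with a smallest adjusted p among the 40 of 0.0618, and DESeq2 called 18 higher and 1 lower (4.77% and 5.64% of all genes). The largest log2 fold change was that of cfh, at 22.7, 24.9 and 29.1 CPM in C25D and the values above in C35D (log2 fold change 1.497, SE 0.23, edgeR adjusted p = 0.0618), followed by c3a.2 at 1.42 (SE 0.21) and cfd at 1.31 (SE 0.20). Vitronectin vtna stood at 1.01 and the C8 and fibrinogen chains c8b and fgb at 1.00 and 0.98. When the replicate number entered edgeR as a block, it called 2 of the 40 genes higher, cfh and cfd (1.12% of all genes), and 0 lower (0.215%). Without C35D-2 it called 18 higher and 1 lower (7.48% and 8.14% of all genes), and without C35D-1 it called 7 higher (2.21%).

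The C3 paralogs differed with age in their shares of the C3 transcripts. As a share of the summed FPKM of 6 C3 genes, c3a.2 made up 14.7% ± 2.32 in C25D, 26.6% ± 4.49 in C35D and 12.9% ± 0.31 in C45D (SD, n = 3), and the C35D libraries, at 23.0% to 31.7%, were above all libraries of the other control ages with measurable C3. The share of c3a.3 went the other way, from 24.5% ± 1.66 in C25D to 10.5% ± 1.88 in C35D and 15.6% ± 2.42 in C45D. Without C45D-3 the C45D shares were 13.2% and 12.9% for c3a.2 and 12.9% and 17.4% for c3a.3. In T35D both stayed near their C35D shares, c3a.2 at 24.9% ± 2.26 and c3a.3 at 11.0% ± 0.66. For c3a.6 the T35D share was 12.5% ± 2.02, against 6.42% ± 0.53 in C35D and 7.41% ± 0.51 in C25D, and the 3 groups of values were apart. No test was run on these shares, which rest on how RSEM assigned reads among the paralogs.

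**Figure D5:**
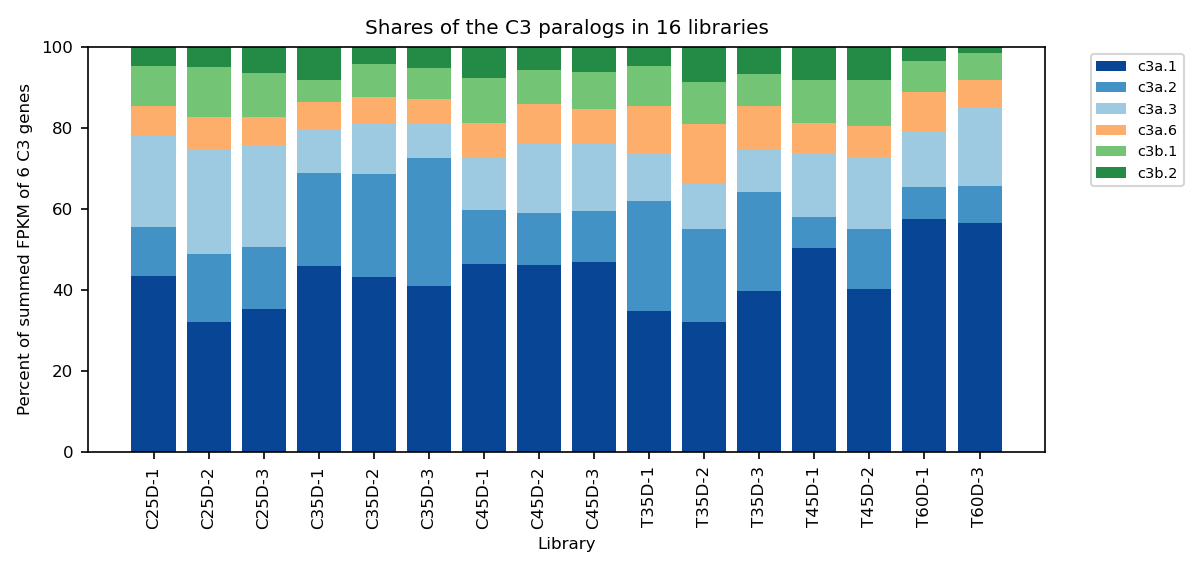
Share of each of 6 C3 paralogs in their summed FPKM, stacked to 100%, in the 16 libraries other than C60D, T45D-3 and T60D-2. The c3a.2 share is 23.0% to 31.7% in C35D and 22.8% to 27.3% in T35D, and the c3a.6 share is 10.9% to 14.8% in T35D against 5.81% to 6.80% in C35D.

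At 45 dpf, 10 days after the return to 28 °C, the genes showed no common shift beyond the spread of T45D. Their median log2 fold change against C45D was -0.43, against 0.12 over 20125 genes tested, with 36 of 40 below 0 (45% of all genes). The values followed the library more than the group, with T45D-1 the highest T45D library for 38 genes and T45D-3 the lowest for 37. In T45D-1, 27 of the 40 genes reached or exceeded the C35D range. Fibrinogen fgg was at 378, 160 and 0.27 CPM in T45D and at 197, 423 and 317 CPM in C45D, so the groups overlapped. By edgeR 0 of the 40 genes passed the adjusted threshold, as did 0% of all genes, and DESeq2 called 0 too (2.05% of all genes lower, 0.606% higher). At the unadjusted threshold 0 were lower and 2 higher, against 10.5% and 5.26% of all genes, and the same 2 genes had groups that did not overlap (0 lower and 2 higher, against 19.3% and 6.87% of all genes). They were c7b, at 1.68, 3.90 and 2.80 CPM in C45D and 8.43, 158 and 7.70 CPM in T45D (log2 fold change 4.42, SE 1.33, edgeR adjusted p = 0.233), and f3b, at 2.85, 2.89 and 2.48 CPM in C45D and 5.02, 34.6 and 5.81 CPM in T45D (log2 fold change 2.52, SE 0.81, edgeR adjusted p = 0.249). Both were highest in T45D-2, the T45D library with oocyte markers. For cfd the C45D libraries held 71.8, 169 and 120 CPM and the T45D libraries 131, 53.9 and 31.5 CPM (log2 fold change -0.68, SE 0.61, edgeR adjusted p = 0.570). Without T45D-3, which was low in liver plasma transcripts, the median was 0.19 and 29 of 40 genes were above 0. Without T45D-1 it was -1.46 and 38 were below 0. T45D-3 also held 436598 CPM of skeletal muscle markers in sum, against 169344 CPM in T45D-1 and 55242 CPM in T45D-2. Its TMM factor, 0.496, was the lowest of the series. The part of muscle content in these values was not tested. Without C45D-3 the median was -0.41, 37 were below 0, and 1 gene was higher at the unadjusted threshold.

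At 60 dpf the comparison was between 3 control libraries low in liver plasma transcripts and a heated group in which T60D-2 was low in them and T60D-1 and T60D-3 were not. Prothrombin f2, for example, was at 1.12, 2.03 and 0.95 CPM in C60D and at 305, 0.76 and 303 CPM in T60D. C9 was at 0, 1.35 and 0.24 CPM in C60D and at 236, 0.25 and 104 CPM in T60D, and plg at 0.21, 1.35 and 0.47 CPM against 276, 0.25 and 187 CPM. In both groups a library low in liver plasma transcripts held little of these genes. Only 21 of the 40 genes passed the filter on low counts, so no median over those tested is reported as a result. By edgeR 0 passed the adjusted threshold, as did 0% of all genes. At the unadjusted one 14 were higher and 1 lower, against 16.1% and 9.53% of all genes. A gene absent from C60D could pass the filter only through T60D, so these counts carry no weight. The filter also dropped genes such as fga, at 571, 0.13 and 272 CPM in T60D and 0.14, 0.39 and 0 CPM in C60D. Factor V (f5) was at 0.77, 0.29 and 0.24 CPM in C60D and 43.7, 1.64 and 13.6 CPM in T60D, antiplasmin serpinf2b at 0.84, 1.06 and 0.63 CPM against 116, 0.69 and 141 CPM, and c3b.2 at 1.19, 1.54 and 0.87 CPM against 29.9, 2.90 and 10.3 CPM. For these too T60D-1 and T60D-3 were the higher T60D libraries and T60D-2 the lowest. DESeq2, which kept all 40, called 32 higher and 0 lower, against 9.78% and 2.49% of all genes. Without T60D-2 edgeR called 27 higher (2.05% of all genes), and without T60D-1 it called 4 (20% of all genes). Without C60D-3 it called 0 of 40, with 27 higher at the unadjusted threshold. The DESeq2 calls and these also rest on the C60D libraries, where most of the genes were near the detection limit. They carry no weight either. Liver plasma genes summed to 350 to 922 CPM in C60D and to 19484, 316 and 15949 CPM in T60D, and fabp10a was at 3825, 2.14 and 1979 CPM there, so heat and liver content cannot be told apart at this age.

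A few of the genes stayed measurable in the 5 libraries low in liver plasma transcripts. In all 5, 29 of the 40 genes stayed under 5% of their C35D mean. Between 12 and 24 of the genes were at or under 3 counts in each of them, against 0 in the other 16 libraries. For fga, fgb and fgg the 5 libraries held at most 0.77 CPM, and cpb2 at most 0.06 CPM. By contrast cfd was at 465, 92.1 and 306 CPM in C60D, up to 369% of its C35D mean, and at 31.5 CPM in T45D-3 and 133 CPM in T60D-2. Its log2 fold change at 60 dpf was -1.77 (SE 0.65, edgeR adjusted p = 0.167), and it was called lower in the fit of all 21 libraries (5.37% of all genes). C7a was at 10.0 to 32.1 CPM in the 5 libraries against a C35D mean of 15.2 CPM, c6 at 7.12 to 28.9 against 31.0, and f10 at 16.3 to 48.8 against 117. For f10 the T60D libraries held 96.7, 16.3 and 96.8 CPM and the C60D libraries 38.3, 43.5 and 38.4 CPM (log2 fold change 0.73, SE 0.62, edgeR adjusted p = 0.445). The C3 gene c3a.6 was at 27.3 CPM in C60D-2 and 10.5 CPM in C60D-3, where c3a.1 was at 0.77 and 0.24 CPM, and at 0 to 0.38 CPM in the other 3. Intestine markers summed to 1062 and 361 CPM in C60D-2 and C60D-3, against 9.14 to 19.5 CPM in the other 3. Exocrine pancreas markers summed to 986 and 359 CPM against 3.85 to 21.6 CPM. The part of these tissues in c3a.6 was not tested. Expression of c7b and f3b reached 120 and 46.5 CPM in T60D-2, where oocyte markers summed to 6346 CPM against 3.00 to 72.7 CPM in the other 4.

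The heat effects at different ages were then compared directly in 1 fit of 18 libraries, which shares its libraries with the comparisons above. Between 45 and 35 dpf the effect was more positive at 45 dpf for 40 of 40 genes (49.1% of all genes), with a median difference of 1.53 against -0.02 over all genes. By edgeR 0 passed the adjusted threshold, as did 0% of all genes, and 0 passed by DESeq2 (0.0765% of all genes higher, 0.00765% lower). Only cfd passed an unadjusted p of 0.05 (3.4% of all genes higher), with a difference of 2.06 (SE 0.89, edgeR adjusted p = 0.608). Without C45D-3 the median difference was 1.55, and without T45D-1 it was 0.19. Between 60 and 35 dpf edgeR called 0 of the 40, against 0% of all genes higher and 0.0045% lower. At an unadjusted p of 0.05, 34 were higher (7.35% of all genes), and DESeq2 called 30 higher (2.52%). Without C60D-3, 33 were higher at the unadjusted threshold and 0 passed the adjusted one. These differences rest on the C60D libraries, where most of the genes were near the detection limit. Neither their size nor the counts of genes passing are therefore taken as a result. Between T35D and T45D the median of the 40 genes was 0.73, against -0.21 over all genes, with 33 above 0 (40.3% of all genes). Without T45D-1 the median was -0.51 and 35 of 40 were below 0. edgeR and DESeq2 called 0 there (0% of all genes by edgeR, 0.102% lower and 0.117% higher by DESeq2), and cfd at 1.77 and c7a at 1.85 passed the unadjusted threshold (2.51% of all genes higher).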

How the data were processed

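Poly(A) RNA of 21 libraries was sequenced on the BGISEQ-500 platform. According to the submitters' processing notes, the authors used HISAT2 2.0.4, Bowtie2 2.2.5, RSEM 1.2.12 and DESeq2 1.4.5 with the GRCz11 build, and the deposited table holds for each gene an RSEM expected count and an FPKM value (scaled by the authors for gene length and library size). RSEM divides reads shared by paralogs by estimation, so values of near-identical genes are less certain. Of 26225 genes, 24087 were named from RefSeq (another build, used for names and gene order only). The promoters of the genes were not analysed here.

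Expected counts were rounded and tested in edgeR 4.0.16 (R 4.3.3) by its quasi-likelihood test, after TMM scaling and removal of low genes with filterByExpr, with a threshold of 0.05 on Benjamini-Hochberg values taken over all genes tested. Printed CPM values use the TMM factors of all 21 libraries, while log2 fold changes come from the fit of each comparison. FPKM values entered no test. They were set against CPM without TMM factors, after removal of 1 common factor per library. The ratio then had a median coefficient of variation of 0.0054 in 4778 genes. Printed CPM can order libraries differently. In the C35D libraries fgg was at 292, 401 and 342 FPKM but at 460, 423 and 472 CPM. With 3 libraries per group, p-values set each difference against the spread between these libraries, which edgeR estimates partly from all genes.

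Alternatives were DESeq2 1.42.0, DESeq2's size factors, library size only, no filter, at least 10 counts in every library, 1 fit of all 21 libraries, a block for the replicate number, the mean log2 CPM of liver enzymes as a covariate, and the omission of each library in turn. Same-numbered libraries deviated weakly together in C35D and C25D (correlations 0.209, 0.220 and 0.152), as the data and not the labels show. The genes, the other gene lists and the rule for named genes (a fixed set over all roles, the 3 with the lowest p and the 2 with the largest positive log2 fold change in each comparison with the control of the same age) were chosen with earlier results of these data known. The gene lists were written from general knowledge, and genes outside the 40 were named after their values were seen. One gene of the fibrinolysis and platelet list is not reported here.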

Additional observations from a re-analysis of the deposited data

How the results depend on the processing

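Over 53 results and 813 alternatives, the direction of the heat effect on most of the genes at 35 dpf was kept under every scaling, filter, tool and left-out library, and was lost with the liver enzyme level as a covariate. With it the medians were 0.19 (T35D against C35D), 0.29 (T35D against C25D), -0.56 (T60D against C60D, over 21 genes), -0.84 (T45D against T35D), -1.42 (45 minus 35 dpf) and -0.74 (60 minus 35 dpf), and at 35 dpf the log2 fold changes were c3a.1 0.15, c9 0.21, cfb 0.69, f2 0.53, f5 0.24, fga 1.53, fgb 0.54, fgg 0.0098, plg 0.20, serpinc1 0.37, serpinf2b 0.50, c3b.2 0.19 and c7b -5.32. For f10 at 60 dpf it was -1.19. The liver enzyme level differed between the groups and did not separate the 5 libraries low in liver plasma transcripts, which limits that fit.

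DESeq2 called 23 genes lower and 2 higher in T35D against C35D, 6 lower and 2 higher against C25D, 1 lower and 18 higher in C35D against C25D, 32 higher at 60 dpf (median 6.87) and 30 higher between 60 and 35 dpf. The shares of all genes called by DESeq2 are given with each comparison above. The fit of all 21 libraries called 1 lower and 30 higher at 60 dpf (median 6.87), against 5.37% and 8.68% of all genes. It called 9 higher between 60 and 35 dpf (0.607% of all genes). At an unadjusted p of 0.05 that fit left 4 of 33 genes lower in T35D against C35D, 1 of 19 against C25D and 1 of 27 higher in C35D against C25D. With no filter the median at 60 dpf was 6.96. With at least 10 counts in every library, 10 genes were called higher in C35D against C25D (1.23% of all genes). With that filter the median between 60 and 35 dpf was 1.02, over 8 genes. The cause of these differences was not tested.

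Leaving out 1 library gave 0 to 35 genes called lower and 0 to 2 higher in T35D against C35D (medians -2.83 to -1.51). T35D against C25D gave 0 to 33 lower and 0 to 2 higher, and C35D against C25D 0 to 1 lower and 0 to 18 higher. At 60 dpf 0 to 27 were higher (medians 3.45 over 22 genes to 7.56 over 40, a range that also reflects which genes were tested). Between 60 and 35 dpf 0 to 29 were higher. The 29 were called without T45D-3 (1.65% of all genes) and without T60D-2 (1.47% of all genes). At 45 dpf the medians were -1.46 (without T45D-1) to 0.19 (without T45D-3) with 0 called, and between T45D and T35D -0.51 (without T45D-1) to 1.55.

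With the replicate block 2 genes were called in C35D against C25D. Elsewhere same-numbered libraries did not deviate together throughout. The correlations were -0.146, 0.445 and -0.435 at 35 dpf, and 0.563, 0.569 and -0.125 between T45D and T35D. In these other comparisons the block called 0 genes, with medians of -2.08, -1.42 and 3.53 (over 21 genes) at 35, 45 and 60 dpf and -0.28 between T45D and T35D. Scaling by library size alone moved the median of all genes from 0.27 to 0.10 at 35 dpf, from 0.12 to -0.43 at 45 dpf and from -0.02 to 0.17 at 60 dpf, and the median of the 40 genes to -1.94 at 35 dpf and -0.84 at 45 dpf. At 60 dpf most of the genes were near 3 counts in C60D. The medians and the counts of genes called at 60 dpf and between 60 and 35 dpf therefore show only how the fits differ.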
